A study of Mus musculus with 16 samples.

Results

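The nuclear genes of the mitochondrial respiratory chain and of the ATP synthase were followed in blood and in a tumour-infiltrating cell fraction of mice bearing a hepatoma. Members were chosen by symbol alone: genes whose name starts with Nduf (complex I), Sdh followed by A to D (complex II), Uqcr (complex III), Cox4 to Cox8 (complex IV) or Atp5 (complex V), without pseudogenes. Of 103 such genes in the RefSeq table, 90 had a named probe on the array and 13 had none, among them Ndufa4l2, Ndufa11, Ndufb1 and Uqcr10. Testing required a probe that the scanner software marked as clearly brighter than background, either in Cy5 on 4 or more of the 8 arrays of one tissue or in Cy3 on 8 or more of all 16. This left 86 of the 90 members, against 12298 of all 16535 genes with a named probe. The tested members comprised 36 genes named for complex I, 4 for complex II, 7 for complex III, 14 for complex IV and 17 for complex V, and 8 assembly factors (Ndufaf and Sdhaf genes). The 4 members not tested were Cox4i2, Cox7b2, Cox8b and Cox8c, whose probes were not well above background on any array in either channel. These are tissue-restricted forms of complex IV subunits.

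The respiratory chain moves electrons from NADH (complex I) and succinate (complex II) through ubiquinone, complex III and cytochrome c to oxygen at complex IV. Complexes I, III and IV pump protons out of the matrix, and the ATP synthase (complex V) lets them return through a ring of c subunits that turns its catalytic head. Most subunits are encoded in the nucleus, and a core of complexes I, III, IV and V is encoded in mitochondrial DNA. Mature red cells and platelets are cell types of blood without a nucleus, and only platelets of the pair keep mitochondria, whereas immature red cells still carry both mitochondria and RNA.

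Each of the 16 two-colour Agilent arrays compared a Cy5-labelled sample with Cy3-labelled RNA from blood of untreated female C57Bl/6 mice. The Cy5 samples were 8 whole-blood samples and 8 samples of the infiltrating fraction ("TIC" in the labels), taken 10 days after Hepa1-6 mouse hepatoma cells were placed under the skin. The submitters call the female hosts C57Bl/6 in the strain field and C57Bl/6 athymic in the treatment text, so it is uncertain whether they had mature T cells. The fraction was made by mashing the tumours and spinning the cells on a density gradient, its RNA was isolated with another kit than the RNA of blood, and no dye was swapped. Tissue and RNA isolation therefore cannot be told apart in any comparison of the fraction with blood. The reference counts as 1 control sample, so the variation among untreated animals does not enter the test of a ratio, and a dye bias can remain in it. In these bulk samples, fewer cells of a type and less RNA per cell cannot be told apart. The labels number the samples but do not say that each number is a separate animal, so p-values measure the spread between these samples.

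Among all probes, 24.8 to 36.3% were well above background in Cy5 on the blood arrays, 51.1 to 65.8% in Cy5 on the fraction arrays and 41.0 to 51.0% in Cy3. The log2 ratios of a blood array and a fraction array correlated between -0.30 and -0.07 over all probes. The direction of the ratios was kept, since the labels give the dyes. Slides 1 and 2 held the blood arrays and slides 3 and 4 the fraction arrays, so slide and tissue cannot be told apart. The labelled tissues were set against marker lists. All 10 erythroid and all 8 platelet markers tested were lower in the fraction than in the reference, 6 of 10 macrophage markers were higher and 1 lower, and 4 of 10 hepatoma markers were higher and none lower. The summed Cy5 signal of the hepatoma list was 776 to 1675 units on the blood arrays and 119026 to 680271 units on the fraction arrays. Of the 11 hepatoma markers on the array 6 were never well above background in Cy5 on the blood arrays and 0 never on the fraction arrays. The array medians of that list's log2 ratios were 0.11 to 0.99 in the fraction, lowest for samples 897 and 898 (0.11 and 0.25). Of 8 neutrophil markers 4 were higher in blood than in the reference and 4 were lower in the fraction. Of 9 B cell markers 3 were lower in blood and 8 in the fraction, and of 7 T cell markers 2 were lower in the fraction. The part of any of these cell types in the results below was not tested.

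To show the genes on which the ATP synthase results turn, the 250 bases before the start site of 4 genes follow, from RefSeq (build GRCm38.p6), 5′ to 3′ on the gene's strand. The c subunit of the rotor ring is made from Atp5g1, Atp5g2 and Atp5g3, whose products share the same mature protein, and Atp5l encodes subunit g of the membrane part. All 4 genes lie on the minus strand, and the stretches are chr2:73911327-73911576 for Atp5g3, chr15:102671048-102671297 for Atp5g2, chr11:96075632-96075881 for Atp5g1 and chr9:44920743-44920992 for Atp5l. Capitals mark matches to the core letters of NRF1, a transcription factor known for nuclear genes of mitochondrial proteins.
Atp5g3: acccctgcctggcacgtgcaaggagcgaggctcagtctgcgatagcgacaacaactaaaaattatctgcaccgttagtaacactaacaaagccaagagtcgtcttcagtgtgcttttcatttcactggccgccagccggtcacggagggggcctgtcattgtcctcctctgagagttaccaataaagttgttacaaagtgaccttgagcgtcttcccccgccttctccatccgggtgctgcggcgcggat
Atp5g2: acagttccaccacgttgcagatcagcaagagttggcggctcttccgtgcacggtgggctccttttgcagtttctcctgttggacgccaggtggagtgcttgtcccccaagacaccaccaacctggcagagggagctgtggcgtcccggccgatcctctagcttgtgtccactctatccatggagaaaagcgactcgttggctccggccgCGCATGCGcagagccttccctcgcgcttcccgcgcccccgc
Atp5g1: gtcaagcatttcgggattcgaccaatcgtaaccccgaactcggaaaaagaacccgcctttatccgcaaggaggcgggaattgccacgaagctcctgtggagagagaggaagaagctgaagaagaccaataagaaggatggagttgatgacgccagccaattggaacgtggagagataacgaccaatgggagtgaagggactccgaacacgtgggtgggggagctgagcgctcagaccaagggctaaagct
Atp5l: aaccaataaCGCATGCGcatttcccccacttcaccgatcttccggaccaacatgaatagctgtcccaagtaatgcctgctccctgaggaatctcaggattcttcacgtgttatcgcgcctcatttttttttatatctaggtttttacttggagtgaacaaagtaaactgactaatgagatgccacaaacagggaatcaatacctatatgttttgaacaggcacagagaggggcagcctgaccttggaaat
Atp5g2 held 1 match, at base -41 from the start site, and Atp5l held 1, at base -241. No match to the letters searched was in the stretches of Atp5g3 and Atp5g1.

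Promoters were searched for CGCATGCG (NRF1), CCGGAAGT (GABPA) and AAGATGGC (YY1) on both strands, in windows of 300 bases that end 50 bases after the start site. The letters were chosen after the values were seen, and no motif equals another on either strand. Windows were found for 75 of the 90 members. CGCATGCG was present for 10 of them, 13.3%, against 3.77% of 9851 tested genes and 2.07% of all 27025 genes of the table. AAGATGGC was present for 10 members, also 13.3%, against 4.91% and 3.19%. CCGGAAGT was present for 5 members, 6.67%, against 8.48% and 4.31%. Any of the 3 motifs was in the windows of 23 members, 30.7%, against 16% of tested genes and 9.03% of all genes. By class these were 9 of 32 for complex I, 0 of 3 for complex II, 3 of 4 for complex III, 2 of 13 for complex IV, 7 of 15 for complex V and 2 of 8 for the assembly factors. The median GC content of the members' windows was 58.7%, against 60% for the tested genes. These matches describe letters and not binding.

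In blood of tumour-bearing mice no member reached a 2-fold difference from untreated blood on the loess scale, and most lay slightly below it. On loess-normalised log2 ratios, none of the 86 members was called higher or lower, where a call needs an adjusted p under 0.05 and at least a 2-fold difference (limma, Benjamini-Hochberg over all 26494 probes tested). Among all genes tested, 0.504% were called higher and 0.244% lower, so a count of 0 among 86 is near the background. At an unadjusted p under 0.05 and any size, 14 members (16.3%) were above 0 and 54 (62.8%) below, against 23.4% and 32.6% of all genes. With an adjusted p under 0.05 alone the counts were 13 (15.1%) and 53 (61.6%), against 20.8% and 29.0% of all genes. The median log2 ratio of the members was -0.19, against -0.02 for all genes, and 40 members (46.5%) lay below 0 on all 8 blood arrays while 5 (5.81%) lay above 0 on all 8, against 21.0% and 13.6% of all genes. Other scalings changed the count of calls. With each array centred on its median ratio 19 members (22.1%) were called lower in blood, against 7.19% of all genes, and with spike-in centring 16 (18.6%), against 6.50%, while 0 were called higher under either. The member medians in blood were then -0.71 and -0.68. With deposited ratios 1 member (1.16%) was called higher and 1 (1.16%) lower, both below the 2.65% and 5.12% of all genes.

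The medians of the complexes in blood are given as a description, and no difference between complexes was tested. The median log2 ratio in blood was -0.22 over complex I, -0.20 over complex II, -0.27 over complex III, 0.08 over complex IV, -0.05 over complex V and -0.19 over the assembly factors. With median centring complex IV stood at -0.39 and complex V at -0.61, and with spike-in centring at -0.36 and -0.59. The members furthest below 0 in blood were Atp5c1 (gamma subunit, the central stalk of the ATP synthase) at a mean log2 ratio of -0.75 and Atp5g3 at -0.74. On the 8 blood arrays the log2 ratio of Atp5g3 had a lowest value of -0.98, a median of -0.75 and a highest of -0.47, with a mean of -0.74 ± 0.05 (SE, adjusted p = 4.1e-08 with limma). All 8 blood arrays were below the reference, but the mean was smaller than the 2-fold asked of a call. Atp5o (the peripheral stalk subunit known as OSCP) had a mean log2 ratio of -0.72 in blood, and Uqcrfs1 (the Rieske iron-sulphur protein of complex III) one of -0.61. The furthest above 0 was Atp5k (subunit e, a membrane subunit that pairs with subunit g), at 0.36 on the lowest array, 0.78 at the median and 1.01 on the highest, with a mean of 0.75 ± 0.06 (SE, adjusted p = 7.8e-08 with limma). Cox6b2, known as the testis form of a complex IV subunit, followed with a mean log2 ratio of 0.61 in blood. Neither value held with median or spike-in centring: Atp5k stood at 0.09 with median and 0.12 with spike-in centring, and Cox6b2 at -0.04 and -0.02. Atp5k and Cox6b2 were named after their values were seen.

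**Figure D1:**
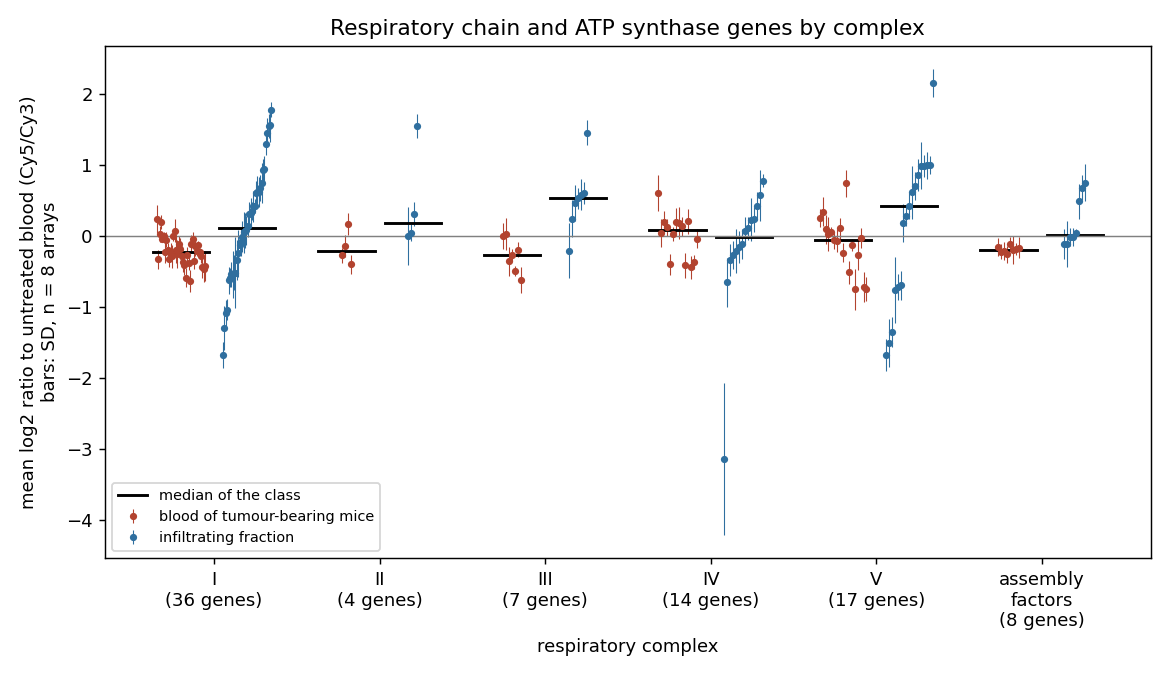
Mean log2 ratio to untreated blood of each of the 86 members (points; bars are the SD over 8 arrays) in blood (red) and in the infiltrating fraction (blue), by complex, with black lines at each class median. The blood means lie between -0.75 and 0.75, the fraction means between -3.14 (Cox6b2) and 2.16 (Atp5g3). With ratios centred on the median or on spike-in spots, 78 (90.7%) or 61 (70.9%) members are called higher in the fraction, against 55.7% or 37.6% of all genes. There 1 (1.16%) is lower, against 3.31% or 9.16%. In blood these centrings call 0 members higher and 19 (22.1%) or 16 (18.6%) lower, against 7.19% or 6.50% of all genes lower.

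In the infiltrating fraction the same genes spread widely, and single subunits of one complex lay far apart. On loess-normalised ratios 10 of 86 members were called higher than untreated blood, 8 were called lower and 68 were not called. Without the fraction arrays of samples 897 and 898, whose raised Cy5 floor is described with Cox6b2, the counts were 11 and 7, and Ndufa1 was no longer called (-0.98). Among all genes tested 9.31% were called higher and 10.1% lower, so neither count stands out from that background, which was not matched in brightness. A stricter filter kept only genes well above background on every array in both channels. Of 78 members so kept 12.8% were higher and 10.3% lower, against 10.8% and 18.9% of 5347 genes. The medians were then 0.23 and -0.09. With the main filter the median log2 ratio of the 86 members in the fraction was 0.21, against 0.05 for all genes. The SD of the members' mean log2 ratios was 0.85 in the fraction and 0.27 in blood, against 1.01 and 0.28 over all genes. By complex the counts higher and lower were 5 and 4 of 36 for complex I, 1 and 0 of 4 for complex II, 1 and 0 of 7 for complex III, 0 and 1 of 14 for complex IV, and 3 and 3 of 17 for complex V. None of the 8 assembly factors was called, although 3 of them were above 0 at an unadjusted p under 0.05 with limma. By an adjusted p under 0.05 alone 3 of 8 were also above 0, where 41.3% of all genes were.

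These directions depended on where the arrays were centred. The fraction arrays also carried far more Cy5 signal than the blood arrays, and the part of this in the dependence was not tested. With each array centred on its median ratio and no loess, 78 members were called higher in the fraction and 1 lower, the median over members was 2.31, and the median over all genes was itself 1.20. Among all genes 55.7% were then called higher and 3.31% lower, against 90.7% and 1.16% of members. With arrays centred on their spike-in control spots the counts were 61 higher and 1 lower, and the medians were 1.67 for members and 0.56 for all genes. The shares were 70.9% and 1.16% of members against 37.6% and 9.16% of all genes. With the ratios as deposited the counts were 14 and 8, and the medians 0.21 and 0.17. Here the members' shares, 16.3% and 9.30%, were below the 25.8% and 21.0% of all genes. Relative to the median of all genes, the members' median thus lay 0.16 higher with loess, 0.04 higher with deposited ratios and 1.11 higher with both centrings. The shift of the family as a whole was therefore not settled by these data. Its internal order depended less on the choice: across the 86 genes, the loess values in the fraction had a Spearman correlation of 0.95 with the centred values and of 0.98 with the deposited ones, as a description of genes on shared arrays. The 10 members called higher with loess were called higher under all 4 scalings. They were Atp5g3, Ndufc1, Ndufc2, Ndufa9, Sdhd, Ndufb2, Uqcrfs1, Ndufb8, Atp5o and Atp5md. Median and spike-in centring raised the members as a group, so these centrings could hardly remove a call of higher. Called lower under all 4 was Cox6b2 alone.

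**Figure D2:**
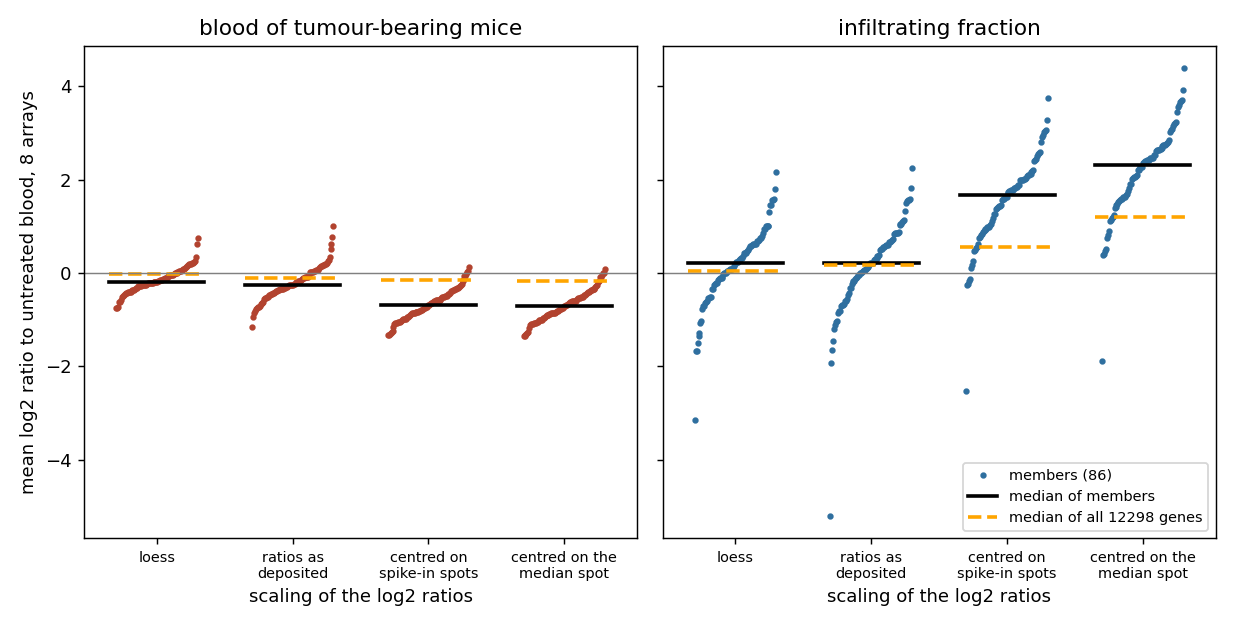
Mean log2 ratio to untreated blood of the 86 members (points, sorted) under 4 scalings of the arrays, for blood and for the infiltrating fraction; the black line is the median of the members and the dashed line the median of all 12298 genes. In the fraction the members' median moves from 0.21 (loess and deposited ratios) to 1.67 (spike-in spots) and 2.31 (median spot), while Atp5g3 stays highest and Cox6b2 lowest.

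Within complex I, which takes electrons from NADH, accessory subunits changed in opposite directions on the loess scale, and the core subunits Ndufs1 and Ndufv1 were not called. The log2 ratio of Ndufc1, a small accessory membrane subunit, was 1.65 on the lowest of the 8 fraction arrays, 1.78 at the median and 1.97 on the highest, against -0.67, -0.49 and 0.01 in blood. The 2 groups did not overlap, and the mean in the fraction was 1.79 ± 0.05 (SE, adjusted p = 6.6e-10 with limma). Ndufc2, its neighbour in the membrane arm, had log2 ratios of 1.15, 1.56 and 2.06 in the fraction and of -0.73, -0.47 and -0.20 in blood. Ndufa9, an accessory subunit at the joint of the 2 arms, had a mean log2 ratio of 1.56, Ndufb2 one of 1.46 and Ndufb8 one of 1.31. These 3 are named because they were called under all 4 scalings, which was seen after the values.

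Ndufa3, a small membrane subunit, lay at the other end. Its log2 ratio was -1.98 on the lowest fraction array, -1.67 at the median and -1.40 on the highest, with a mean of -1.67 ± 0.06 (SE, adjusted p = 1.2e-08 with limma). In blood it ran from -0.06 through 0.23 to 0.55, so the groups did not overlap. Ndufa1, a membrane subunit needed to assemble the complex, had a mean of -1.04 in the fraction and 0.20 in blood. Ndufb10 had a mean of -1.29 and Ndufa2 one of -1.08. The sign of all 4 turned with the arrays centred on their medians, where Ndufa3 stood at 0.41, Ndufa1 at 1.17, Ndufb10 at 0.91 and Ndufa2 at 1.1. A shift of a whole array cancels in the difference between members on it. With loess, Ndufc1 minus Ndufa3 was 3.14 to 3.95 on the 8 fraction arrays and -0.98 to -0.17 on the blood arrays. With median centring it was 3.15 to 3.95 and -1.20 to -0.03. This pair and those below were chosen after the values were seen. Ndufc1 was the highest and Ndufa3 the lowest member of complex I in the fraction with loess, so a wide gap follows from the choice.

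Ndufs1 carries iron-sulphur clusters and Ndufv1 the NADH-binding site. Ndufs1 had log2 ratios of -0.98, -0.44 and -0.24 in the fraction and of -0.31, -0.21 and -0.08 in blood, and Ndufv1 had -1.12, -0.44 and 0.17 against -0.42, -0.36 and -0.11. For both, the arrays of the 2 groups overlapped. Ndufa4, named for complex I but now assigned to complex IV, had a mean log2 ratio of 0.08 ± 0.07 (SE, adjusted p = 0.32 with limma) in the fraction and was not called.

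In complex II, the succinate dehydrogenase that also serves the TCA cycle, Sdhd alone was called higher in the fraction on the loess scale. By an adjusted p under 0.05 alone, limma placed 2 of the 4 members above 0. With median and with spike-in centring all 4 were called higher, against 55.7% and 37.6% of all genes. Sdhd, a membrane anchor, had log2 ratios of 1.23, 1.55 and 1.81 on the fraction arrays against -0.52, -0.44 and -0.17 in blood, and a mean in the fraction of 1.55 ± 0.06 (SE, adjusted p = 1.5e-08 with limma). Sdha, the flavoprotein, had a mean of 0.05 ± 0.05 (SE, adjusted p = 0.39 with limma). Sdhb, the iron-sulphur subunit, had log2 ratios of -0.71, 0.14 and 0.42 in the fraction, on both sides of 0. Sdhc, the other anchor, had 0.09, 0.35 and 0.61. Sdhd minus Sdhb was 1.13 to 2.52 on the fraction arrays and -0.34 to 0.22 on the blood arrays, which did not overlap. Sdhc minus Sdha overlapped, with 0.01 to 0.74 in the fraction and -0.03 to 0.68 in blood.

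In complex III, which passes electrons from ubiquinol to cytochrome c, 6 of 7 members had a mean above 0 in the fraction with loess. Uqcrfs1 alone was called on that scale. With median and with spike-in centring all 7 were called higher, against 55.7% and 37.6% of all genes. The log2 ratio of Uqcrfs1 with loess ran from 1.13 through 1.5 to 1.64 in the fraction and from -0.79 through -0.65 to -0.23 in blood. The mean in the fraction was 1.46 ± 0.06 (SE, adjusted p = 2.9e-08 with limma). Uqcrc1, a core structural subunit, had 0.37, 0.65 and 0.78 in the fraction and -0.34, -0.20 and 0.01 in blood, also without overlap but under 2-fold. By Cy5 it was called higher in the fraction than in blood, at 1.02, and fell under 2-fold without sample 889 (1.0), 896 (0.98) or 897 (0.98), and without both 897 and 898 in the fraction (0.99). Uqcrb, the ubiquinone-binding protein, had a mean of 0.59 in the fraction and -0.49 in blood.

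In complex IV, cytochrome c oxidase, no member was called higher in the fraction on the loess scale and 1 of 14 was lower. This too depended on the scaling. With median centring 12 of 14 were called higher and 1 lower, against 55.7% and 3.31% of all genes. With spike-in centring 10 were higher and 1 lower, against 37.6% and 9.16%. The values below are on the loess scale. At an unadjusted p under 0.05 limma placed 5 above 0 and 4 below. By an adjusted p under 0.05 alone 4 of 14 lay above 0 and 4 below, against 41.3% and 35.1% of all genes. On that scale the core of the named list was near the reference. Cox4i1, the largest nuclear subunit, had log2 ratios of -0.21, 0.26 and 0.64 in the fraction and -0.63, -0.45 and -0.05 in blood. Its groups overlapped. Cox5a had -0.03, 0.45 and 0.68 against -0.62, -0.49 and -0.20, without overlap, with a mean of 0.42 in the fraction. Cox5b, its companion subunit, had a mean of 0.58 in the fraction and -0.36 in blood.

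Isoforms of the same complex IV subunit gave pairs to compare. Cox6a1, the form of most tissues, and Cox6a2, the form of heart and skeletal muscle, had mean log2 ratios of -0.65 and -0.33 in the fraction. Cox6a1 minus Cox6a2 was -1.33 to 0.11 on the fraction arrays with loess but 0.52 to 1.96 with median centring, so their order was not settled. Cox7a2 and Cox7a1, the corresponding pair of another small subunit, had 0.24 and 0.08, and the related Cox7a2l, which joins complexes III and IV into supercomplexes, had -0.21. Cox8a had 0.11, and its muscle partner Cox8b was among the members not tested. Cox6b2 stood far from its partner. Its log2 ratio was -3.94 on the lowest fraction array, -3.57 at the median and -1.01 on the highest, against 0.11, 0.62 and 0.86 in blood. The mean in the fraction was -3.14 ± 0.32 (SE, adjusted p = 1.7e-05 with limma), while Cox6b1, the form of most tissues, stood at -0.26 ± 0.07 (SE, adjusted p = 0.0065 with limma).

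The spread of Cox6b2 within the fraction came from the arrays of samples 897 and 898, at -1.01 and -1.93, whereas the other 6 lay between -3.94 and -3.46. Its background-corrected Cy5 signal was 722 and 933 units on these arrays and 89.5 to 203 units on the other 6. The floor of the corrected Cy5 signal was itself raised on the 2 arrays: the 4 members never above background read 612 to 617 units for sample 897 and 819 to 837 units for sample 898, against 57.4 to 100.3 units on the other 6 fraction arrays and 54.6 to 150 units on the blood arrays. The mean of Cox6b2 in the fraction was -3.70 without these 2 arrays, a fit added after the data were seen. The deposited ratios, which use the scanner software's own background, ran only from -5.42 to -4.90 for Cox6b2 in the fraction, with a mean of -5.20. The size of the difference thus depended on the background correction, and its direction held under all 4 scalings. The erythroid markers moved the same way in the fraction, with array medians of their log2 ratios from -6.20 to -5.37 over 10 genes. The platelet markers lay between -5.94 and -4.74 over 8 genes. The part of those cell types in the Cox6b2 result was not tested.

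**Figure D3:**
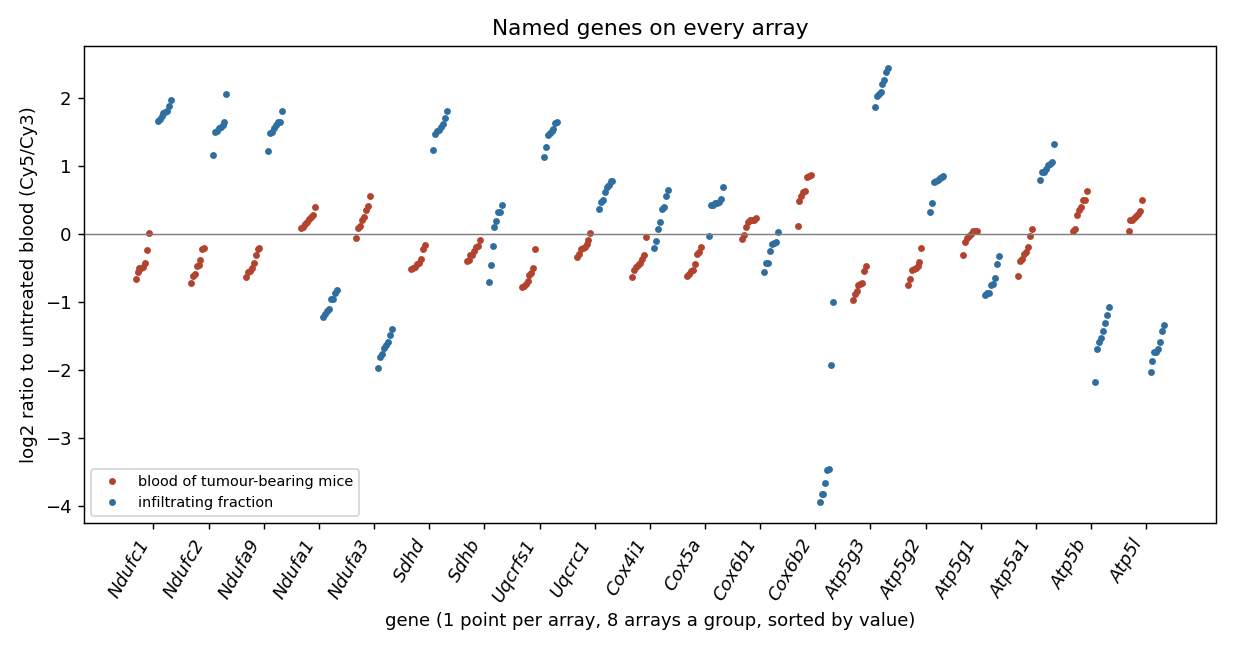
Log2 ratio to untreated blood of 19 members on each of 8 blood arrays (red) and 8 infiltrating-fraction arrays (blue), loess-normalised and sorted within each group. Atp5g3 lies between 1.86 and 2.44 in the fraction and Atp5l between -2.03 and -1.34, while Cox6b2 shows 6 arrays between -3.94 and -3.46 and 2 higher ones; with the arrays centred on their medians the means of Atp5l, Ndufa3, Ndufa1 and Atp5b are above 0.

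The ATP synthase held both the highest member of the family and, after Cox6b2, the lowest on the loess scale. That second place was nearly shared: Atp5l stood at -1.68 and Ndufa3 of complex I at -1.67. Without sample 889 Ndufa3 was the lower, at -1.70 against -1.63. Among the genes of the c subunit, whose promoters are printed above, Atp5g3 had log2 ratios of 1.86, 2.15 and 2.44 in the fraction, with a mean of 2.16 ± 0.07 (SE, adjusted p = 2.7e-09 with limma). Its background-corrected Cy5 signal was 32641 to 154749 units on the fraction arrays and 749 to 1641 units on the blood arrays. Atp5g2 had log2 ratios of 0.33, 0.78 and 0.85 in the fraction and -0.76, -0.51 and -0.21 in blood, above the reference on all 8 fraction arrays but under 2-fold. Atp5g1 had -0.90, -0.75 and -0.33 in the fraction and -0.31, -0.02 and 0.04 in blood, below on all 8 fraction arrays and not called, and its mean turned to 1.38 with median centring. Atp5g3 minus Atp5g1 was 2.19 to 3.12 on the fraction arrays and -0.92 to -0.34 on the blood arrays with loess, 2.85 to 3.15 and -0.99 to -0.45 with median centring, and 2.86 to 3.31 and -0.98 to -0.12 with deposited ratios. By ratio, the gap between these genes thus differed between fraction and blood under each of these scalings, with ranges that did not overlap. The reference channel moved as well: the scaled Cy3 signal of Atp5g1 was 1.71 higher on the fraction arrays and that of Atp5g3 0.35 lower. By the scaled Cy5 signal both genes rose, Atp5g3 by 2.56 and Atp5g1 by 1.07. Atp5g2 has a second probe, with a mean log2 ratio of -0.43 in the fraction where the brighter probe gave 0.70, so its place in that order is uncertain.

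Atp5l had log2 ratios of -2.03, -1.71 and -1.34 in the fraction and 0.04, 0.25 and 0.50 in blood, with a mean in the fraction of -1.68 ± 0.08 (SE, adjusted p = 3.6e-08 with limma). It turned to 0.51 with median centring and stood at -0.13 with spike-in centring. Its Cy5 signal before scaling was 3799 to 30361 units on the fraction arrays and 2628 to 6820 units on the blood arrays, so its ratio was low on arrays that were brighter as a whole. Atp5mpl, another small protein of the complex, had a mean of -1.35 in the fraction and turned to 0.75 with median centring. Atp5o rose to a mean of 1.01 ± 0.05 (SE, adjusted p = 8.2e-08 with limma) and Atp5md, a small membrane subunit, to 1.0 ± 0.07 (SE, adjusted p = 6.3e-07 with limma), both at the edge of the 2-fold asked. Atp5o fell under 2-fold without sample 891 (0.99) or without sample 893 (0.99), and Atp5md without sample 893 (0.98), 894 (0.99), 897 (0.99) or 898 (0.97). Just outside the threshold lay Atp5a1 and Atp5c1, both at 1.0 when rounded and not called. Atp5a1 passed 2-fold without sample 890, 894, 897 or 898 (1.0 to 1.02), and Atp5c1 without sample 893 (1.08) or 897 (1.04).

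The catalytic head is built from alternating alpha (Atp5a1) and beta (Atp5b) subunits, and the probes of these partners diverged. Atp5a1 had log2 ratios of 0.80, 0.98 and 1.32 in the fraction and -0.62, -0.29 and 0.07 in blood. Atp5b had -2.18, -1.48 and -1.08 in the fraction and 0.05, 0.37 and 0.63 in blood. Atp5a1 minus Atp5b was 1.98 to 2.98 on the fraction arrays and -0.87 to -0.43 on the blood arrays with loess, and 2.01 to 2.68 and -1.21 to -0.33 with median centring. The result for Atp5b rested on the choice of probe. Its 3 probes had mean log2 ratios of -1.5, -0.80 and -0.08 in the fraction, and their average of -0.80 was no longer called. The Cy5 differences of the same probes between fraction and blood were 0.08, -1.28 and -0.64. Over the 17 members with more than 1 tested probe, probes of a gene differed in the fraction by a median of 0.31, and by over 1 for 2 genes, Atp5b and Atp5g2.

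The reference channel was set beside such ratios, since the Cy3 label is untreated blood on all 16 arrays. Loess and scaling used both channels, so the scaled Cy3 signal is not free of the Cy5 sample. After scaling, the log2 Cy3 signal of 11 of 86 members (12.8%) was at least 2-fold higher on the fraction arrays than on the blood arrays, against 7.14% of all genes, and of none (0 of 86) at least 2-fold lower, against 1.58%. The largest differences were 1.93 for Atp5b, 1.80 for Ndufb10, 1.71 for Atp5g1 and 1.67 for Ndufv3, a small subunit at the NADH-binding module. Before scaling, the Cy3 signal of Ndufb10 was 1341 to 1657 units on the blood arrays and 5420 to 8140 units on the fraction arrays. That of Atp5g3 was 2380 to 3035 units and 2438 to 2938 units, so the raw ranges overlapped, and its scaled difference was -0.35. The summed Cy3 signal of the 11 hepatoma markers on the array, in untreated blood, ran from 816 to 18711 units over the 16 arrays. Of the 8 members called lower in the fraction, Atp5b, Ndufb10 and Ndufa2 (1.30) were among the 11, whereas Cox6b2 (-0.90) and Atp5mpl (-0.40) had less Cy3 signal on the fraction arrays. What moved the Cy3 signal of these probes with the arrays was not tested.

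The difference between the fraction and blood was then taken from the ratios and from the Cy5 signal after loess and scaling. Those steps used both channels, so this Cy5 signal is not free of the reference. Both comparisons with the reference share that reference, so no correlation between them is given, and the values stand side by side. For the ratio of the fraction minus that of blood, 18 members were called higher and 7 lower, where all genes gave 12.1% and 11.8%, and the member median was 0.25 against 0.08 over all genes. For the Cy5 signal after scaling, 26 members were higher and 5 lower, against 18.0% and 14.9% of all genes, and the median difference was 0.66 against 0.19. The member share called higher by Cy5 was thus above the share of all genes in this fit. Other scalings used Cy5 without Cy3. Scaling to the 75th percentile of each array gave 63 higher (73.3%, against 29.8% of all genes) and 5 lower (5.81%, against 33.3%). Quantile normalisation of Cy5 gave 30 higher (34.9%, against 21.1%) and 5 lower (5.81%, against 15.7%). With median centring the ratio difference was higher for 80 members and lower for 1, where all genes gave 60% and 2.72%. With spike-in centring it was higher for 76 and lower for 1, against 45.5% and 9.51% of all genes. With the deposited ratios the counts were 23 (26.7%) and 8 (9.30%), both below the 34.4% and 22.6% of all genes. The ranges of the 2 groups did not overlap for 50 members in the ratios, 37 of them higher in the fraction (43.0%, against 24.8% of all genes) and 13 lower (15.1%, against 17.4%). In Cy5 this held for 55 members, 46 of them higher (53.5%, against 36.0%) and 9 of 86 lower (against 23.4%).

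By complex, the Cy5 differences had medians of 0.86 for complex I, 0.66 for complex II, 0.60 for complex III, -0.12 for complex IV, 0.73 for complex V and 0.29 for the assembly factors. Complex I had 15 of 36 members called higher and 2 lower by Cy5, complex V 7 and 2 of 17, and complex IV 1 and 1 of 14. With Cy5 scaled to the 75th percentile the counts were 32 and 1 for complex I, 13 and 1 for complex V and 5 and 2 for complex IV, whose median turned to 0.58. The single complex IV member called higher by Cy5, Cox5b at 1.07, was no longer called, at 0.97, without the fraction arrays of samples 897 and 898. The highest differences by Cy5 were 2.56 ± 0.10 (SE, adjusted p = 9.3e-15 with limma) for Atp5g3, 2.26 for Ndufc1, 2.25 for Atp5a1 and 2.05 for Ndufc2. The lowest were -4.65 ± 0.19 (SE, adjusted p = 3.1e-14 with limma) for Cox6b2, -2.15 for Ndufa3, -2.05 for Atp5l, -1.84 for Atp5mpl and -1.32 for Ndufa1. These 5 were the members called lower by Cy5, and all of them were also lower by the ratios. Atp5b and Ndufa2 were lower by the ratio difference, at -1.85 and -1.11, and had Cy5 differences of 0.08 and 0.18. Atp5g1 had a ratio difference of -0.64 and rose by Cy5, at 1.07, which was the direction opposite to its ratio. The second probe of Atp5a1 had a Cy5 difference of 0.27, so the value of 2.25 rested on the brighter one.

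**Figure D4:**
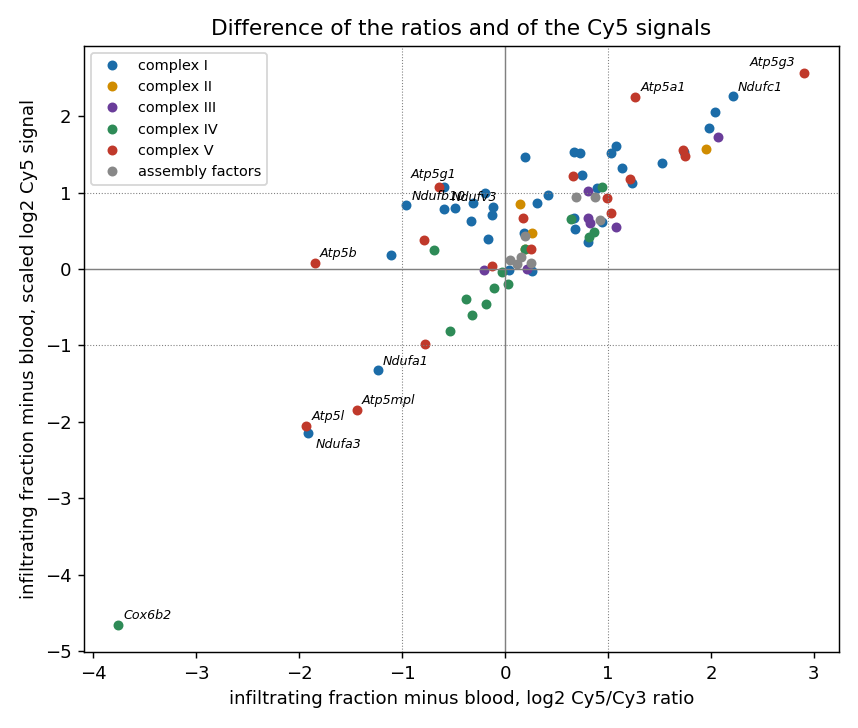
Difference between infiltrating fraction and blood for 86 members, by loess-normalised log2 Cy5/Cy3 ratio (horizontal) and by scaled log2 Cy5 signal (vertical), coloured by complex, with dotted lines at 2-fold. Atp5g3 (2.91 and 2.56) and Cox6b2 (-3.76 and -4.65) have the same sign by both and lie below the diagonal, while Atp5b (-1.85 and 0.08), Ndufb10 (-0.96 and 0.83), Atp5g1 and Ndufv3 lie above it; the signs of Atp5b, Ndufb10 and Atp5g1 by ratio turn with median centring.

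Ndufaf5 and Ndufaf7, assembly factors of complex I, did not exceed background clearly in Cy5 on any of the 8 blood samples, which allows only bounds. In this fit the Cy5 signal of Ndufaf5 was at least 1.92-fold higher in the fraction than in blood, at a difference of 0.94. With Cy5 scaled to the 75th percentile its difference was 0.44, so the bound holds for the main scaling only. The bound for Ndufaf7 was at least 1.1-fold, but its direction depended on the scaling, with a Cy5 difference of 0.15 here and of -1.21 with Cy5 scaled to the 75th percentile. A bound sets the mean of the bright group against the higher of the dim probe's own signal and the dimmest signal well above background on each array. The other 6 assembly factors had Cy5 differences between 0.06 (Sdhaf2) and 0.94 (Ndufaf4), and none of the 8 was called. By an adjusted p under 0.05 alone limma placed 5 of 8 above 0, where 51.4% of all genes were. Signal itself was not limiting for most members: 78 of 86 (90.7%) were well above background on all 16 arrays in both channels, against 43.5% of all genes tested.

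The other genes of oxidative metabolism were counted from lists, on the loess scale only. Among all genes tested on that scale, 9.31% were called higher and 10.1% lower in the fraction. Of 8 electron carriers and associated genes, 4 were higher in the fraction and none lower on the loess scale, led by Cycs (cytochrome c, 1.55) and followed by Etfdh (1.18), Etfb (1.1) and Cmc1 (1.04). The list's median log2 ratio was 1.01 in the fraction and -0.27 in blood. Of 29 assembly factors outside the name rule 2 were higher, Tmem70 (1.37), needed to assemble the ATP synthase, and Cox14 (1.22), a complex IV factor. Of 13 TCA cycle genes 2 were higher, Idh3a (1.43) and Sucla2 (1.03), and none lower, with a median of 0.24. Of 13 regulators of mitochondrial genes Hif1a (1.76), the oxygen-regulated transcription factor, was higher. Of 7 genes for the exchange of ADP, ATP and phosphate 3 were higher, namely the outer-membrane channels Vdac1 (1.81) and Vdac2 (1.70) and the phosphate carrier Slc25a3 (1.26), and 2 were lower, Ucp2 (-2.89) and Vdac3 (-1.57). Of 13 glycolysis genes 6 were higher and none lower, with a median of 0.99 and values from 1.91 (Tpi1) to 3.25 (Pgam1) among the 6. In blood no gene of these 6 lists was called, where 0.504% of all genes were called higher and 0.244% lower. At an adjusted p under 0.05 alone, limma placed in blood 0 of 8 carriers above 0 and 7 below, 3 and 17 of 29 assembly factors, 0 and 6 of 13 regulators, 1 and 8 of 13 TCA cycle genes, 3 and 4 of 7 exchange genes, and 3 and 5 of 13 glycolysis genes. Among all genes 20.8% lay above 0 and 29.0% below at that limit. The subunits encoded in mitochondrial DNA had no named probe and were not analysed here.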

How the data were processed

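The 16 two-colour arrays were read from the deposited scanner files, whose median foreground and background values are spot intensities that the authors deposited without normalisation. Per the file headers the spots were extracted with Agilent Feature Extraction 10.5.1.1, whereas the submitters' processing notes name 9.1.3.1. The deposited log10 ratio of Cy5 over Cy3 was also read and turned to log2. The deposited series table held the same ratios, with a largest difference of 0. Intensities were corrected with normexp (offset 50) and turned into log2 ratios by loess within arrays in limma 3.58.1 (R 4.3.3). Control spots had weight 0, 87 to 153 outlier spots per array were left out, and no spot was saturated (0 on every array). Spots of a probe were averaged. The separate Cy5 and Cy3 signals were taken after loess and Aquantile scaling, which use both channels.

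Of 41174 probes 23374 matched a single symbol through the RefSeq gene list of build GRCm38.p6, 0 matched several and 17800 matched none. A gene was represented by its brightest tested probe. Tests were limma's moderated tests over 26494 probes with Benjamini-Hochberg adjustment, and a call needed an adjusted p under 0.05 and at least a 2-fold difference. The steps were tested on simulated data. The number of arrays limits the precision.

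The members and gene lists were chosen with earlier results of these data known. Named genes were, per comparison and complex, up to 2 called rises and 2 called falls with the same sign on all 8 arrays, plus a fixed core of subunits and isoform pairs. Genes outside this rule, the promoters and the pairs subtracted were chosen after values were seen. Samples of blood and fraction share numbers, and the labels do not say that they are pairs. The correlations of same-numbered deviations were small, from -0.165 to 0.20, but most samples correlated best with their own number. Whether the samples are paired was thus not settled. The main fits did not use the numbers as pairs, and fits with the number as a block gave the same counts of calls. Alternatives covered centring, background, filters, probes, slides, single samples and the scaling of Cy5. One more, without the fraction arrays of samples 897 and 898, was chosen after seeing the data.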

Additional observations from a re-analysis of the deposited data

Results flagged for a closer look

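Sample 897 of the infiltrating fraction lay apart from the other 7 in 2 genes: Cox5a at a log2 ratio of -0.027, with the next sample at 0.42, and Cox6a1 at -1.40, with the next at -0.80. These were 2 of 70 groups of 8 examined, and chance sets apart about 1 in 20 such groups.

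For 12 named members all 8 blood arrays lay on one side of the reference and all 8 fraction arrays on the other, and limma called the difference between them. Many named genes were chosen for a call and the same sign on all 8 arrays, so this count follows in part from the choice. Among all members, named or not and called or not, 24 lay below the reference on all 8 blood arrays and above it on all 8 fraction arrays. The reverse held for 4 members. No such share over all genes was set beside these counts, so they do not tell whether the family differs from other genes in this. The fraction minus blood difference in log2 ratio was 2.91 for Atp5g3, 2.07 for Uqcrfs1, 2.04 for Ndufc2, 1.95 for Sdhd, 1.75 for Atp5c1, 1.73 for Atp5o, 1.21 for Atp5g2 and 1.07 for Uqcrb. It was -3.76 for Cox6b2, -1.94 for Atp5l, -1.85 for Atp5b and -1.24 for Ndufa1. With the arrays centred on their medians or on spike-in spots the last 3 turned positive.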

How the results depend on the processing

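Centring decided most counts. Members called with median centring, spike-in centring and an adjusted p alone were 19 (all lower), 16 (all lower) and 66 in blood, 79, 62 and 65 in the fraction, and 81, 77 and 68 for the fraction minus blood. Blood gave 2 with deposited ratios and 1 with subtracted background. Cy5 gave 76 by adjusted p alone and 68 scaled to the 75th percentile. Leaving out 1 sample number in turn gave 0 to 0 calls in blood, 17 to 19 in the fraction, 25 to 27 for the difference and 30 to 32 by Cy5. With the sample number as a replicate block, the difference kept a count of 25 and Cy5 one of 31; 5 of 8 samples correlated best with their own number. Of the 18 fraction calls, 11 were shared in direction under each centring and 18 with deposited ratios.

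Of 86 members, the sign differed from that with loess under median and spike-in centring for 23 and 22 in blood, 33 and 31 in the fraction and 28 and 28 for the difference, and the cause was not tested. Named genes whose sign turned with a call under loess or under the alternative were as follows. In the fraction with median centring: Atp5b 0.82, Atp5g1 1.38, Atp5l 0.51, Atp5mpl 0.75, Cox6a1 1.66, Cox6b1 1.63, Cox7a2l 1.90, Ndufa1 1.17, Ndufa3 0.41, Ndufb10 0.91, Ndufs1 1.58, Ndufv1 1.56 and Sdhb 2.01. In the fraction with spike-in centring: Atp5b 0.18, Atp5mpl 0.11, Cox6a1 1.02, Cox7a2l 1.26, Ndufa1 0.53, Ndufb10 0.27 and Sdhb 1.37. For fraction minus blood with median centring: Atp5b 0.81, Atp5g1 1.98, Atp5l 0.77, Atp5mpl 1.28, Cox6a1 1.94, Cox6b1 2.10, Cox7a1 1.5, Cox8a 2.69, Ndufa1 1.47, Ndufa3 0.80, Ndufb10 1.87, Ndufs1 2.43 and Ndufv1 2.46. For the same difference with spike-in centring: Atp5b 0.14, Atp5g1 1.31, Atp5l 0.11, Atp5mpl 0.62, Cox6a1 1.28, Cox6b1 1.44, Cox8a 2.03, Ndufa1 0.80, Ndufa3 0.14, Ndufb10 1.21, Ndufs1 1.77 and Ndufv1 1.80.

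Averaging probes ended the calls of Atp5b in the fraction (-0.80), of Atp5a1 (0.93) and Atp5g2 (0.50) for the difference, and of Uqcrc1 by Cy5 (0.90). Without 1 sample the differences of Cox5b (1.0, without 893) and Ndufb10 (-1.03, without 897) and the Cy5 value of Ndufv1 (1.03, 1.08 and 1.01, without 891, 893 and 898) passed 2-fold. Without the fraction arrays 897 and 898, a setting chosen after seeing the data, the calls were 18 in the fraction, 27 for the difference and 30 by Cy5.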
